A study of Homo sapiens with 6 samples.

Results

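The glutathione transferases of the alpha class, GSTA1 to GSTA5, were examined together with the microsomal transferases MGST1, MGST2 and MGST3, the omega-class gene GSTO1 and the kappa-class gene GSTK1. These are 10 of the 20046 genes that the platform annotation names on the array, and 19 probes carry their symbols. The genes were chosen by the measured difference between sorafenib and control arrays, since the alpha class was lower with sorafenib. Their differences are therefore given as a description, with no test. The data come from HepG2, an established line of human liver tumour cells, labelled as hepatocellular carcinoma. In the sorafenib group, 3 arrays held RNA of HepG2 cells kept for 24 h with the kinase inhibitor sorafenib at a labelled dose of 3 mM. In the control group, 3 arrays held RNA of HepG2 cells kept for 24 h with the solvent DMSO only. Micromolar doses are usual in culture, and the files do not allow the labelled unit to be checked. No genetic change or second agent is given for either group, and both rest on 1 cell line. Whether replicates were separate cultures is not stated in the labels, so errors and p-values describe the variation among these 6 arrays, and that variation may be technical.

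Glutathione transferases join the thiol of the tripeptide glutathione to electrophilic compounds, which makes drugs, carcinogens and products of lipid peroxidation more soluble and ready for export. The soluble alpha-class enzymes are abundant in hepatocytes, and their genes lie side by side in a cluster on chromosome 6. The microsomal enzymes are unrelated membrane proteins of the MAPEG family (membrane-associated proteins in eicosanoid and glutathione metabolism). The omega-class enzyme uses a cysteine in its active site for reductions, and the kappa-class enzyme resides in mitochondria and peroxisomes.

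Promoter sequences are shown first because the probes of the 5 alpha-class genes varied in the size of their difference. RefSeq windows (assembly GRCh38.p14) run from 250 bases before to 50 bases after the transcription start, so the start follows base 250 of each line. They were found for 9 of the 10 genes, in 11 windows since MGST1 has 3. Without gaps, the GSTA1 and GSTA2 windows were the same at 288 of 300 positions (96%). The other 9 pairs of alpha-class windows shared 19.3% to 28.7% of positions. GSTA1 (chr6:52803767-52804066, minus strand) and GSTA2 (chr6:52763426-52763725, minus strand) are printed with the 12 positions at which they differ in capitals. GSTA4 (chr6:52995235-52995534, minus strand), another alpha-class gene, and GSTO1 (chr10:104254642-104254941, plus strand), which was higher with sorafenib, are printed with the motif matches described after them in capitals.
GSTA1: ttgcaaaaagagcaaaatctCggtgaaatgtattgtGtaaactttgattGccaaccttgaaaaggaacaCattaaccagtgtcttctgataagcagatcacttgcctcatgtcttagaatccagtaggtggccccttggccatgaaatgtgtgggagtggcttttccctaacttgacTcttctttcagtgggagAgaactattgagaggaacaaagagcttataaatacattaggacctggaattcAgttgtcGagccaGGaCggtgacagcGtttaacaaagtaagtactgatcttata
GSTA2: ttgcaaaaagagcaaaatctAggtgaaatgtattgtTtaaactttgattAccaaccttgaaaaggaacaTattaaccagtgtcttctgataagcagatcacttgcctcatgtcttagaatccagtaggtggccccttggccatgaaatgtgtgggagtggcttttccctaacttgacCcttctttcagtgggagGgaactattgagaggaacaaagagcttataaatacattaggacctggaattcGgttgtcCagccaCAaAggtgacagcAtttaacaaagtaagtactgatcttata
GSTA4: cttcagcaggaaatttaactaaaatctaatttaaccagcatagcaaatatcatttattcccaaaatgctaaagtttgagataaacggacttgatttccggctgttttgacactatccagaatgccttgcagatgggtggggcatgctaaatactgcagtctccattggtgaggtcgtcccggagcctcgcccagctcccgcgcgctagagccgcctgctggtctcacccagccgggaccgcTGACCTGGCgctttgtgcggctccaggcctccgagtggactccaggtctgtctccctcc
GSTO1: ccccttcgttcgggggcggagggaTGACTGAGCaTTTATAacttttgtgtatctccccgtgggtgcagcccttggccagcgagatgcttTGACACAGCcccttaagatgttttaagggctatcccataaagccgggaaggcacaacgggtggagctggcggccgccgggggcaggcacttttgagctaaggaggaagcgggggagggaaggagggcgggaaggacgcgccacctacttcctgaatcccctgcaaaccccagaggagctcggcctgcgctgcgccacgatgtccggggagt

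5 motifs were searched on both strands in these windows and in all 35116 RefSeq promoter windows of the same length. The TATA box TATAAA stood at positions -30 to -25, counted from the start, in GSTA1 and in GSTA2, and 11.5% of all windows held it. It was also found at -216 to -211 in GSTO1, on the opposite strand, and in 1 MGST1 window, and in no window of GSTA3, GSTA4 or GSTA5. The core of the antioxidant response element, TGACNNNGC, through which NRF2 acts, was found in 13.3% of all windows. GSTA4 held it at -9 to -1, GSTO1 at -226 to -218 and at -161 to -153, and an MGST1 window at 31 to 39. The C/EBP motif TTGCNNAA (10.5% of windows) stood at -250 to -243 in GSTA1 and GSTA2 and was also in the GSTK1 window. The AP-1 motif TGANTCA (7.71%) and the E-box CACGTG (7.26%) were in none of the members' windows. A match describes letters only and is no measured binding site. The windows of GSTA1, GSTA2, GSTA3 and GSTA5 held 40.0% to 45.7% G and C with 1 to 4 CpG pairs, against a median of 58.7% and 14 CpG pairs over all windows. The GSTA4 window held 53.0% and 14 CpG pairs, and the GSTO1 window 61.7% and 19.

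All levels that follow are log2 intensities after background correction and quantile normalization over the 6 arrays, with a fixed offset of 16 that makes differences of dim probes smaller. Levels are compared between arrays for 1 probe at a time, not between probes. The exceptions are the marker lists, summed over probes on the unlogged scale, and the likeness of centred profiles. Probe brightness is also compared in a remark on GSTA1 and GSTA2. A probe was kept when its detection p-value was under 0.05 on at least 3 of the 6 arrays, and 18 of the 19 member probes passed.

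GSTA1, a main alpha-class enzyme of human liver that conjugates electrophiles and reduces organic hydroperoxides, is read by 3 probes, and all gave lower values with sorafenib. Probe ILMN_1701831 read 11.58, 11.73 and 11.77 on sorafenib arrays, against 13.43, 13.42 and 13.59 on control arrays. The difference, sorafenib minus control, on the log2 scale was -1.79 ± 0.09 (SE, with n = 3 arrays in each group), so the sorafenib level was 29.0% of the control level. Probe ILMN_2113470 read 12.51, 12.58 and 12.72 with sorafenib and 14.20, 14.23 and 14.34 in controls, a difference of -1.65 ± 0.09. Probe ILMN_3251497 read 13.15, 13.20 and 13.40 with sorafenib and 14.61, 14.67 and 14.75 in controls, a difference of -1.43 ± 0.10. No sorafenib array reached any control array for any of the 3 probes, and sorafenib replicate 3 was the highest sorafenib array for each.

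GSTA2, a near copy of GSTA1 with a similar range of substrates, was lower by a larger amount on the log2 scale at 2 of its 3 probes. Those 2 probes were also the dimmest of the 6 GSTA1 and GSTA2 probes, with control means of 11.65 and 12.24. A larger difference of the gene and a dependence on probe brightness therefore cannot be told apart here. Probe ILMN_3251540 read 9.13, 9.34 and 9.35 with sorafenib and 11.71, 11.63 and 11.59 in controls. Its difference of -2.37 ± 0.09 was the fifth lowest of the 20120 probes kept, and the sorafenib level was 19.3% of the control level. Probe ILMN_2168747 read 9.84, 10.05 and 10.05 with sorafenib and 12.27, 12.30 and 12.15 in controls, a difference of -2.26 ± 0.10. Probe ILMN_1655613 read 11.61, 11.68 and 11.94 with sorafenib and 13.42, 13.56 and 13.65 in controls, a difference of -1.80 ± 0.12, close to that of the GSTA1 probes. The groups were apart for all 3 probes. Probe sequences were not used here, so signal of GSTA1 and GSTA2, whose transcripts are near-identical, may not be separable, and whether the probes read 1 or several alpha-class transcripts was not tested.

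GSTA5, an alpha-class gene whose product is little characterised, is read by 1 probe. It gave 7.48, 7.33 and 7.52 with sorafenib and 9.42, 9.37 and 9.59 in controls, a difference of -2.02 ± 0.10, which leaves 24.7% of the control level. The groups were apart by more than the range within either. Without background correction the difference was -1.50. The same doubt about near-identical sequence applies to this probe.

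GSTA4 conjugates 4-hydroxynonenal, an aldehyde formed when lipids are oxidised. Its probe read 10.92, 10.99 and 10.82 with sorafenib and 11.50, 11.46 and 11.48 in controls. The difference of -0.57 ± 0.08 was smaller than that of any GSTA1, GSTA2 or GSTA5 probe, and the groups did not overlap. The sorafenib level was 67.2% of the control level.

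GSTA3, known for its isomerase activity in steroid hormone synthesis, was near the detection limit. Probe ILMN_2227817 read 5.25, 4.91 and 4.92 with sorafenib and 6.61, 6.06 and 6.30 in controls, and it was above background on 0 sorafenib and 3 control arrays. It passed the filter only through the control arrays, so the filter itself favoured a lower sorafenib level. On the background-corrected levels the bound was at least 1.58-fold lower with sorafenib. That bound has no allowance for error and does not hold without background correction. The fitted difference was -1.30 ± 0.16, and it shrank to -0.54 without background correction. Probe ILMN_1769083 read 5.41, 5.51 and 5.74 with sorafenib and 5.73, 5.65 and 6.09 in controls, with overlapping groups and a difference of -0.27 ± 0.15. That probe was above background on 1 sorafenib and 2 control arrays and stands just inside the filter. The member probe that did not pass the filter was the MGST1 probe ILMN_1687387. It read 4.69, 4.59 and 4.66 with sorafenib and 4.63, 4.64 and 4.70 in controls and was above background on no array.

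**Figure D1:**
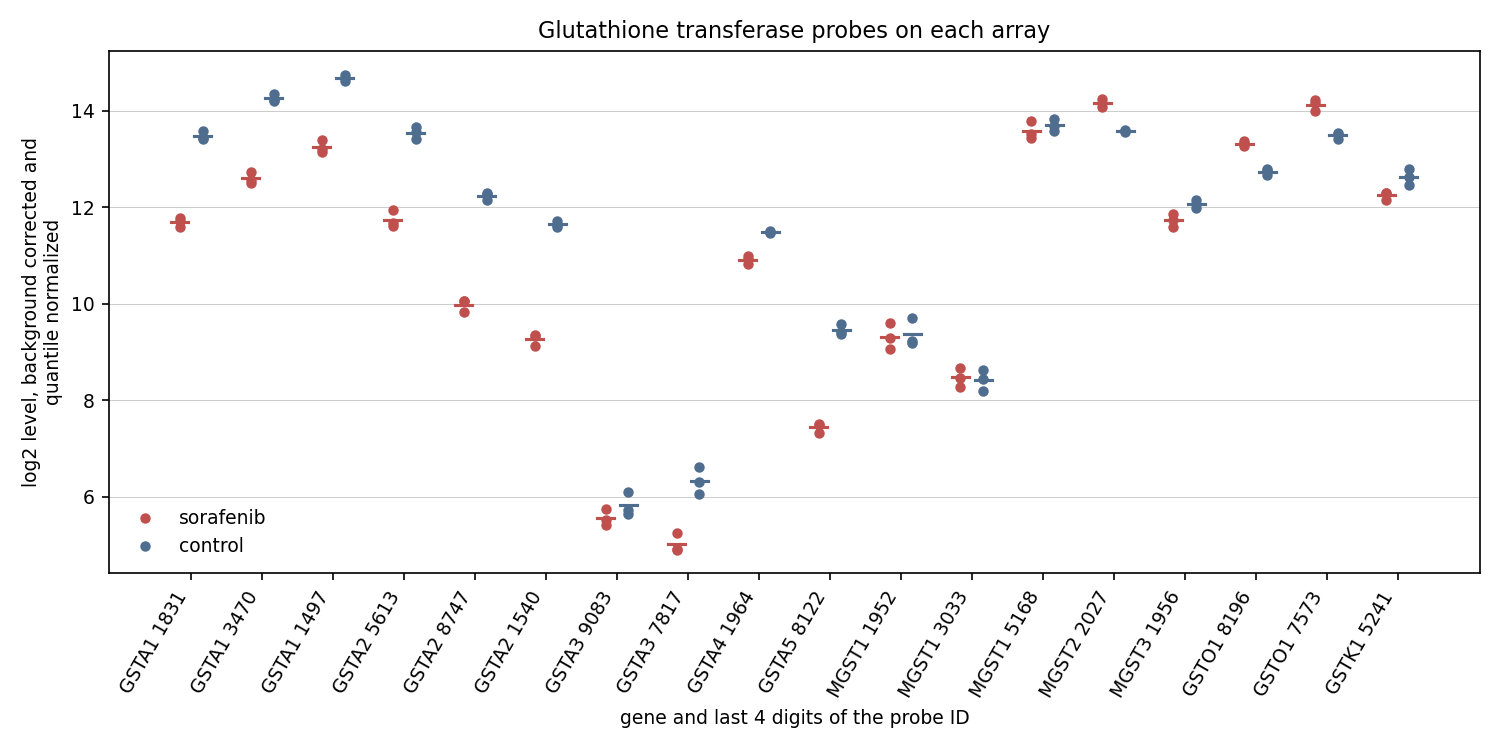
Log2 level of each of the 18 kept member probes (vertical axis, background corrected and quantile normalized) on each array, 1 dot per array and a bar at the group mean, sorafenib in red to the left of control in blue. The dots of the groups are apart for every GSTA1, GSTA2, GSTA4 and GSTA5 probe, for MGST2, MGST3, GSTO1 and GSTK1 and for 1 GSTA3 probe, and they overlap for the other GSTA3 probe and the 3 MGST1 probes.

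Of the microsomal genes, MGST2 was higher with sorafenib, MGST3 was slightly lower, and the groups overlapped for MGST1. MGST1, a trimeric membrane enzyme of the endoplasmic reticulum and outer mitochondrial membrane with transferase and peroxidase activity, gave overlapping groups at its 3 kept probes. Probe ILMN_2355168 read 13.45, 13.51 and 13.79 with sorafenib and 13.58, 13.68 and 13.83 in controls, a difference of -0.11 ± 0.12. The other two differed by -0.05 ± 0.19 and 0.05 ± 0.15. MGST2, which can also make leukotriene C4 from glutathione, read 14.07, 14.24 and 14.15 with sorafenib and 13.59, 13.56 and 13.57 in controls. It was higher by 0.58 ± 0.08, or 149% of the control level, with no overlap. MGST3, a relative with peroxidase activity, read 11.74, 11.86 and 11.59 with sorafenib and 12.07, 12.16 and 11.99 in controls, apart but only by -0.34 ± 0.10.

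GSTO1, the omega-class enzyme that reduces dehydroascorbate and glutathionylated proteins, was higher with sorafenib at both probes. Probe ILMN_2227573 read 13.99, 14.15 and 14.23 with sorafenib and 13.52, 13.55 and 13.41 in controls, a difference of 0.63 ± 0.09. Probe ILMN_1808196 read 13.26, 13.33 and 13.37 with sorafenib and 12.79, 12.77 and 12.67 in controls, a difference of 0.58 ± 0.08. For both, each sorafenib array stood above each control array. GSTK1, the kappa-class enzyme of mitochondria and peroxisomes, read 12.16, 12.29 and 12.30 with sorafenib and 12.47, 12.62 and 12.80 in controls, a difference of -0.38 ± 0.11 with no overlap.

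At the threshold used for other genes, a limma adjusted p under 0.05 over all 20120 probes, 9 member probes were lower, 3 were higher and 6 did not pass. With the replicate number as a block, 11 were lower, because GSTK1 and MGST3 then passed, and 3 were higher. Over all probes 3364 passed, which is 16.7%, with 9.45% lower and 7.27% higher. The 9 lower without the block were alpha-class probes, 9 of 10 in that class, and the 3 higher were those of MGST2 and GSTO1. The sorafenib arrays all lay below the control arrays for 11 member probes, against 19.8% of all probes, and all above for 3, against 19.2%. A difference of -1 or lower was found at 8 member probes and at 1.28% of all probes. Nothing is read from these counts, because the same contrast chose the members and GSTA3 probe ILMN_2227817 passed the filter only through control arrays. The median difference was -1.72 over the 10 alpha-class probes, -0.05 over the 5 microsomal probes and 0.01 over all probes. For the spread between arrays of a group, the median SD over member probes was 0.12 with sorafenib and 0.09 in controls, and over all probes it was 0.13 in each group. Since RNA of many cells was pooled on each array, fewer cells that express a gene and less RNA per cell cannot be told apart.

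**Figure D2:**
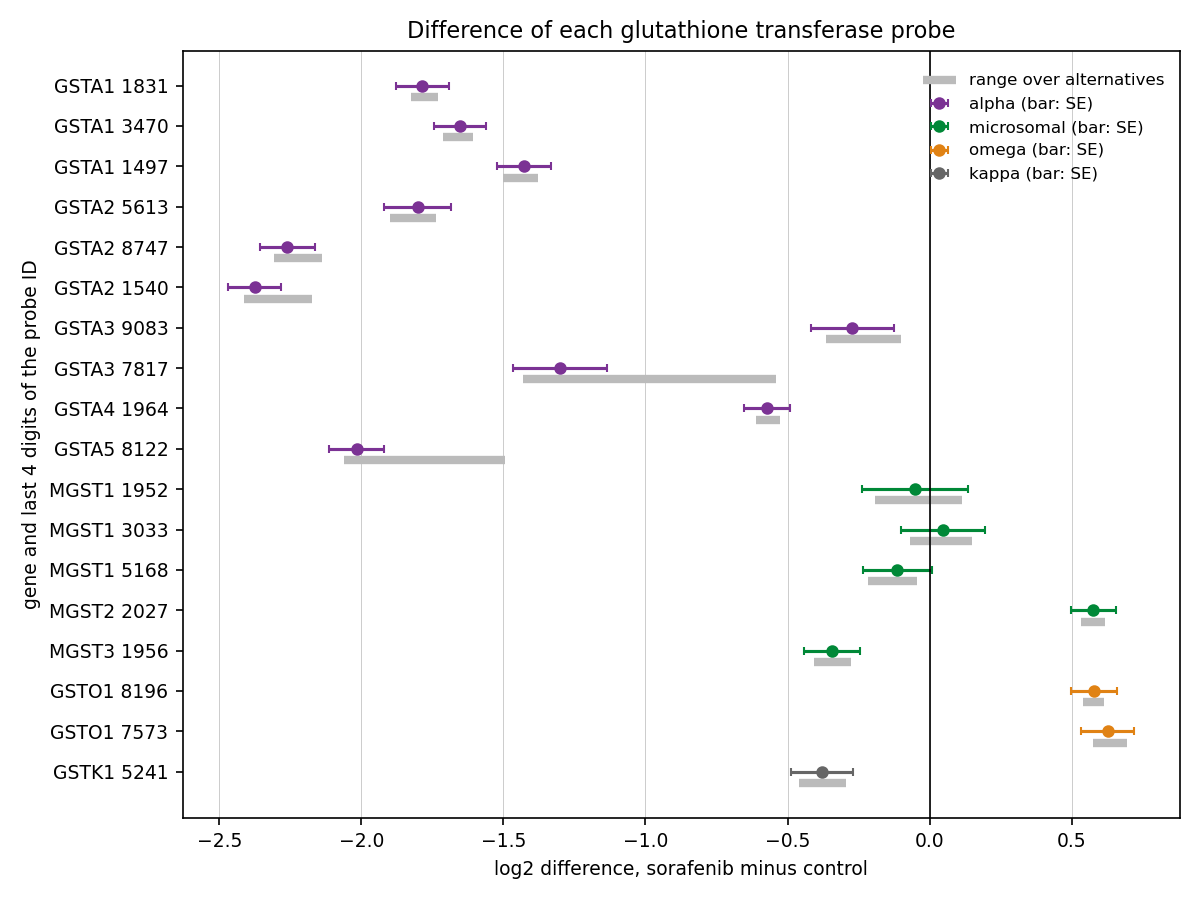
Log2 difference, sorafenib minus control, of each kept member probe (dot, with a bar of 1 SE), coloured by class, with a grey bar under each for its range over the alternative settings. GSTA1, GSTA2 and GSTA5 lie at -1.43 or lower, GSTO1 and MGST2 between 0.58 and 0.63, and the grey bar of 1 GSTA3 probe runs up to -0.54.

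Mean intensity per array was 739 to 1050, and 19440 to 20138 of the 47323 probes were above background. Log2 values correlated at 0.989 to 0.994 between arrays of a group and at 0.977 to 0.986 between groups. All 10 hepatocyte markers were above background on all 6 arrays, and the sum of their levels was 202224 to 234566 on sorafenib arrays and 221384 to 252624 on control arrays. Single markers moved both ways: TF, transferrin, and APOA1 fell by 0.61 (limma, adjusted p = 0.0113) and 0.47 (adjusted p = 0.0213), and APOB rose by 0.53 (adjusted p = 0.0216). Of the 5 stromal markers, COL1A1, COL1A2, COL3A1 and LUM were above background on no array, and of the 5 endothelial markers, VWF, CDH5, TEK and CLDN5 were on none. The brightest DCN probe, of the stromal list, was above background on 2 sorafenib arrays, and PECAM1, of the endothelial list, on 1 sorafenib array. Of the leukocyte markers, PTPRC and CD3E were above background on no array, while CD14 and LYZ were above background on all 6 arrays. LYZ, the lysozyme gene in that list, averaged 12.66 in controls and rose by 0.82 (limma, adjusted p = 0.00489). CD14 averaged 8.22 in controls and differed by 0.23 (adjusted p = 0.0999). The summed leukocyte list was 11217 to 13163 with sorafenib and 6547 to 7377 in controls, and most of that sum is LYZ. The part of these markers in the member differences was not tested.

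The other glutathione transferases were not among the members, though their list too was chosen with earlier results of these data known. Those that passed the test were all lower with sorafenib. Of 12 listed, 10 were tested and 6 fell, 0 rose and 4 did not pass, with a median difference of -0.54. Over the 11542 genes, each read by its kept probe of highest mean, 11.6% fell and 8.44% rose, and the median was 0.0007. The mu-class genes GSTM1, GSTM2 and GSTM4 fell, the enzymes of a class known for epoxide substrates. GSTM2 read 10.16, 10.32 and 10.41 with sorafenib and 11.19, 11.19 and 11.09 in controls, and fell by 0.86 ± 0.09 (limma, adjusted p = 0.00327). GSTM4 fell by 0.70 ± 0.08 (adjusted p = 0.00392) at that probe, while its other probe gave -0.11 (adjusted p = 0.759). GSTM1 read 11.69, 11.68 and 11.64 with sorafenib and 12.26, 12.25 and 12.15 in controls, and fell by 0.55 ± 0.08 (adjusted p = 0.00667). In the theta class, GSTT2B fell by 0.81 ± 0.16 (adjusted p = 0.0205) and GSTT1, named after its values were seen, by 0.53 ± 0.08 (adjusted p = 0.00704). The GSTT2B probe was dim, with a sorafenib mean of 5.92, and above background on 2 of 3 sorafenib arrays. GSTT2 differed by -0.24 ± 0.20 with overlapping groups (adjusted p = 0.464). Whether mu-class and theta-class probes read 1 or several transcripts was not tested. GSTZ1, a zeta-class enzyme of tyrosine breakdown, fell by 0.59 ± 0.10 (adjusted p = 0.0130), while its other probe gave -0.44 (adjusted p = 0.436). Neither GSTM4 nor GSTZ1 passed when the probes of a gene were averaged. GSTP1, the pi-class enzyme that is low in adult hepatocytes, read 8.53, 8.08 and 8.02 with sorafenib and 7.95, 7.73 and 8.03 in controls. Its difference of 0.31 ± 0.16 did not pass (adjusted p = 0.230). GSTO2, an omega-class gene named after its values were seen, was higher by 0.61 ± 0.19 with no overlap but did not pass (adjusted p = 0.0699). GSTT2B was at -0.33 without background correction and did not pass without any 1 of the 3 control arrays, and GSTM1 and GSTT1 did not with median scaling. Over the 18 alternatives 4 to 6 genes fell and 0 to 1 rose, with 1 rising in 6 of them, the replicate block included. In the other MAPEG family list, 1 of 3 genes was tested: ALOX5AP, the activating protein of leukotriene synthesis, differed by 0.40 (adjusted p = 0.0692) and passed, as higher, in 6 of the alternatives.

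Of 11 tested genes that make and recycle glutathione, 1 fell and 0 rose, with a median of -0.13. Over all genes 11.6% fell and 8.44% rose, so nothing particular to this list is read from that count. GCLC, the catalytic subunit of the rate-limiting enzyme, read 8.66, 8.95 and 8.79 with sorafenib and 9.01, 8.92 and 8.89 in controls, a difference of -0.14 ± 0.10 (limma, adjusted p = 0.375). GCLM, its modifier subunit, differed by 0.27 ± 0.12 (adjusted p = 0.171), and GSR, glutathione reductase, by 0.15 ± 0.08 (adjusted p = 0.238). CBS, which opens the path from homocysteine to cysteine, fell by 0.41 ± 0.08 (adjusted p = 0.0180). CBS did not pass without sorafenib replicate 1 or 2 or control replicate 2 or 3. SLC7A11, named after its values were seen, had the largest difference in the list. It was higher by 0.77 ± 0.23 with no overlap but did not pass (adjusted p = 0.0627). Over the 18 alternatives 0 to 3 of these genes fell and 0 to 2 rose. At least 1 rose in 11 of them, with 1 under the replicate block.

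Among 18 peroxidases, glutaredoxins, thioredoxins and peroxiredoxins tested, 4 rose and 1 fell, with a median of -0.09. GLRX, the cytosolic glutaredoxin, read 13.59, 13.64 and 13.55 with sorafenib and 12.83, 12.85 and 12.75 in controls, a rise by 0.78 ± 0.08 (limma, adjusted p = 0.00234). The mitochondrial glutaredoxin GLRX2 rose by 0.51 ± 0.13 (adjusted p = 0.0428), thioredoxin reductase TXNRD1 by 0.44 ± 0.08 (adjusted p = 0.0131) and the secreted peroxidase GPX3 by 0.39 ± 0.09 (adjusted p = 0.0284). The other kept probes of GLRX2 and TXNRD1 gave 0.46 (adjusted p = 0.108) and 0.38 (adjusted p = 0.0841), which did not pass. GLRX2 passed in 1 of the 6 fits without single arrays. GPX7, a peroxidase of the endoplasmic reticulum, fell by 0.38 ± 0.10 (adjusted p = 0.04996) and did not pass with the replicate number as a block (adjusted p = 0.0701). Without single arrays the rises numbered 1 to 4, with 1 without sorafenib replicate 2, 2 without sorafenib replicate 1, control replicate 1 or control replicate 2, and the falls 0 in each case. With median scaling the rises numbered 1 and the falls 0, and over all alternatives the falls ran up to 5. GLRX passed in each of these fits.

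The steps after conjugation are export from the cell and trimming to mercapturates. Of 7 such genes tested, 3 fell and 0 rose, with a median of -0.31. ACY3, an aminoacylase that acts on mercapturates, read 5.69, 6.47 and 5.72 with sorafenib and 6.93, 6.96 and 7.02 in controls, and fell by 1.01 ± 0.21 (limma, adjusted p = 0.0224). Its difference was -0.43 without background correction, and it passed in 1 of the 6 fits without single arrays, that without sorafenib replicate 2. The conjugate exporter ABCC3 fell by 0.43 ± 0.10 (adjusted p = 0.0297) and the aminopeptidase ANPEP by 0.38 ± 0.09 (adjusted p = 0.0386). ABCC2, the exporter of the bile canaliculus, differed by 0.23 (adjusted p = 0.135). The count was smaller with fewer arrays: 1 fell without sorafenib replicate 2 or 3 and with median scaling, and 0 fell without sorafenib replicate 1 or any 1 control array.

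Other detoxifying enzymes of liver were examined as well. Of 10 phase 2 conjugating enzymes and epoxide hydrolases tested, 4 fell and 0 rose, with a median of -0.44. SULT2A1, a sulfotransferase for steroids and bile acids, read 12.38, 12.41 and 12.64 with sorafenib and 13.69, 13.71 and 13.75 in controls. It fell by 1.24 ± 0.10 (limma, adjusted p = 0.00115). The glucuronosyltransferase UGT2B7 fell by 0.71 ± 0.14 (adjusted p = 0.0178), was at -0.42 without background correction and passed in 2 of the 6 fits without single arrays. The epoxide hydrolases EPHX2 and EPHX1 fell by 0.63 ± 0.12 (adjusted p = 0.0180) and 0.54 ± 0.10 (adjusted p = 0.0136). Without single arrays 1 to 5 fell, with 1 without sorafenib replicate 2 and 2 without control replicate 2 or 3, and SULT2A1 passed in each. With the replicate block 5 fell and 1 rose. Of 11 genes that clear reactive aldehydes, 3 fell and 0 rose, with a median of -0.23. ALDH1A1, a cytosolic aldehyde dehydrogenase, read 10.79, 10.88 and 10.99 with sorafenib and 11.78, 11.88 and 12.07 in controls, and fell by 1.02 ± 0.11 (adjusted p = 0.00280). PTGR1, a reductase of unsaturated aldehydes, fell by 0.48 ± 0.09 (adjusted p = 0.0172) and mitochondrial ALDH2 by 0.42 ± 0.08 (adjusted p = 0.0155). Without single arrays 1 to 6 of these fell, with 6 without sorafenib replicate 3 and 1 without sorafenib replicate 2 or control replicate 2. The replicate block likewise gave 5 falls and 1 rise here, and median scaling 1 fall.

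**Figure D3:**
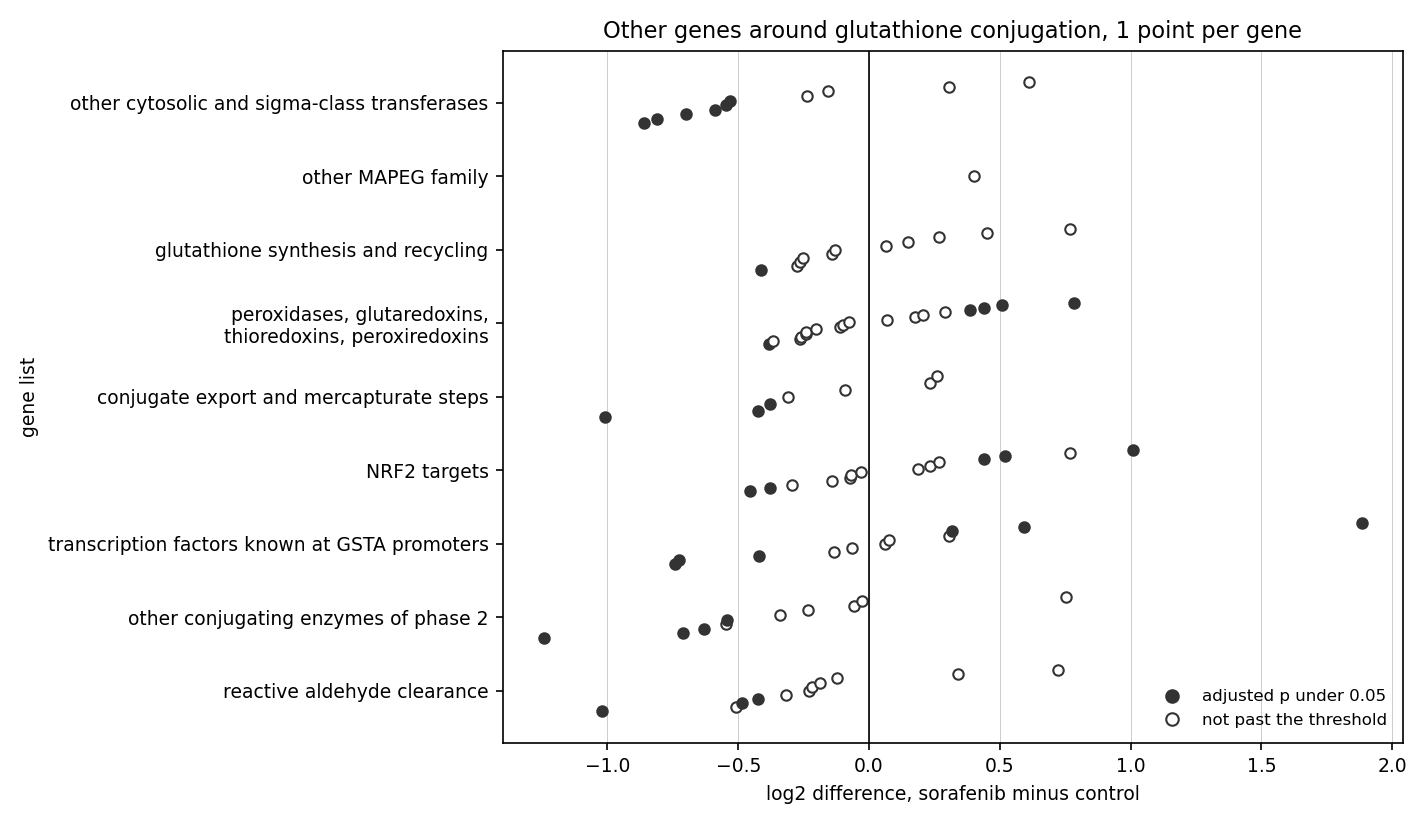
Log2 difference, sorafenib minus control, of each tested gene (1 point, by its kept probe of highest mean) in the 9 lists around glutathione conjugation, filled where the adjusted p was under 0.05. In the list of other transferases the 6 filled points lie between -0.86 and -0.53, while the peroxidase, NRF2 and transcription factor lists have filled points on both sides of 0.

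NRF2 is the transcription factor that induces many conjugating enzymes when its inhibitor KEAP1 is disabled. Of 14 listed targets tested, 3 rose and 2 fell, with a median of 0.08. AKR1B10, an aldo-keto reductase, read 14.22, 14.33 and 14.55 with sorafenib and 13.35, 13.34 and 13.38 in controls, a rise by 1.01 ± 0.10 (limma, adjusted p = 0.00272). SRXN1, the enzyme that repairs oxidised peroxiredoxins, rose by 0.52 ± 0.08 (adjusted p = 0.00985), and the third was TXNRD1. HMOX1, heme oxygenase, fell by 0.46 ± 0.08 (adjusted p = 0.0138) and AKR1C3 by 0.38 ± 0.07 (adjusted p = 0.0189). NQO1, a quinone reductase often used as the marker of NRF2 activity, differed by 0.19 ± 0.08 (adjusted p = 0.142) at its probe of highest mean, and its other probe rose by 0.46 (adjusted p = 0.0482). Without single arrays 2 to 4 rose and 0 to 1 fell, with 0 falls without sorafenib replicate 2 or control replicate 2, 1 without any other array and 0 with median scaling. Over all alternatives 2 to 6 rose and 0 to 4 fell.

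Of 11 transcription factors and partners known at alpha-class promoters, 3 fell and 3 rose. CEBPA, a factor of hepatocyte differentiation, read 12.23, 12.37 and 12.58 with sorafenib and 12.97, 13.09 and 13.35 in controls, and fell by 0.74 ± 0.14 (limma, adjusted p = 0.0153). RXRA, the partner of several nuclear receptors, fell by 0.73 ± 0.11 (adjusted p = 0.00874), and FOXA2, named after its values were seen, by 0.42 ± 0.08 (adjusted p = 0.0178). The small MAF protein MAFF, a partner of NRF2, read 8.01, 7.72 and 7.70 with sorafenib and 6.25, 6.22 and 5.31 in controls, where it was above background on 2 of 3 arrays. It rose by 1.88 ± 0.26 (adjusted p = 0.00636), while its other probe gave 0.81 (adjusted p = 0.201). Without background correction MAFF was at 0.95. MAFG rose by 0.59 ± 0.14 (adjusted p = 0.0346) and did not pass with the replicate block (adjusted p = 0.0558). NFE2L2, which encodes NRF2, rose by 0.32 ± 0.07 (adjusted p = 0.0294), and KEAP1 differed by 0.06 ± 0.12 (adjusted p = 0.783). Without single arrays 1 to 3 fell and 1 to 2 rose. The falls numbered 1 without sorafenib replicate 2 or control replicate 2 and 2 without sorafenib replicate 3 or control replicate 1. The rises numbered 2 without control replicate 2 and 1 without any other array. With median scaling 2 fell and 1 rose, and NFE2L2 passed neither there nor without any single array. HNF4A, MAFK and NR1I2 were not analysed here.

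The probes whose pattern over the 6 arrays lay closest to the mean of the 10 alpha-class probes belonged to 4 genes. Likeness was the root mean square distance between profiles centred on their means, over 15260 named probes outside the members. The alpha-class mean rests on the values that chose the members, and it includes the GSTA3 probe that passed only through control arrays. It was close to a step of -1.55 between the groups, so the search could only return probes with a similar fall. Nothing beyond that is read from the likeness. HPX, which encodes the heme-binding plasma protein hemopexin, was closest at 0.05, with 8.34, 8.47 and 8.54 on sorafenib arrays and 9.92, 10.002 and 10.05 on control arrays. Next came PALM, a gene of a membrane-anchored protein, at 0.08, then ADGRG1, an adhesion receptor gene, at 0.08, SLC29A4, which encodes a monoamine transporter, at 0.09, and a second ADGRG1 probe at 0.10. The differences of these 5 probes were -1.69 to -1.40. The other PALM probes were less alike, with differences of -0.37 and -2.01. Within the class itself the distance was 0.06 for the closest GSTA1 probe and 0.65 for GSTA3 probe ILMN_1769083, and both are part of the mean they are set against.

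The alpha-class genes are neighbours, so the genes on either side were read too, a choice made after the data were seen. In the RefSeq gene order the cluster runs GSTA2, GSTA1, GSTA5, GSTA3, GSTA4. Of the 5 nearest protein-coding genes on each side, 8 were tested and 3 fell, 0 rose, with a median of -0.14. PAQR8, a membrane progestin receptor gene, averaged 11.11 with sorafenib and 12.25 in controls, with no overlap, and fell by 1.14 ± 0.08 (limma, adjusted p = 0.000928). TMEM14A, directly beside GSTA2, fell by 0.48 ± 0.08 (adjusted p = 0.0130) and the fatty acid elongase gene ELOVL5 by 0.48 ± 0.09 (adjusted p = 0.0165). TRAM2, between PAQR8 and TMEM14A, differed by 0.25 (adjusted p = 0.0702), and CILK1, directly beside GSTA4, by -0.13 (adjusted p = 0.330). GCLC, the synthesis gene described above, is the fifth gene on that side. TMEM14A did not pass without sorafenib replicate 2, and ELOVL5 did not without sorafenib replicate 1 or 2 or control replicate 1 or 3, and neither passed with median scaling.

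**Figure D4:**
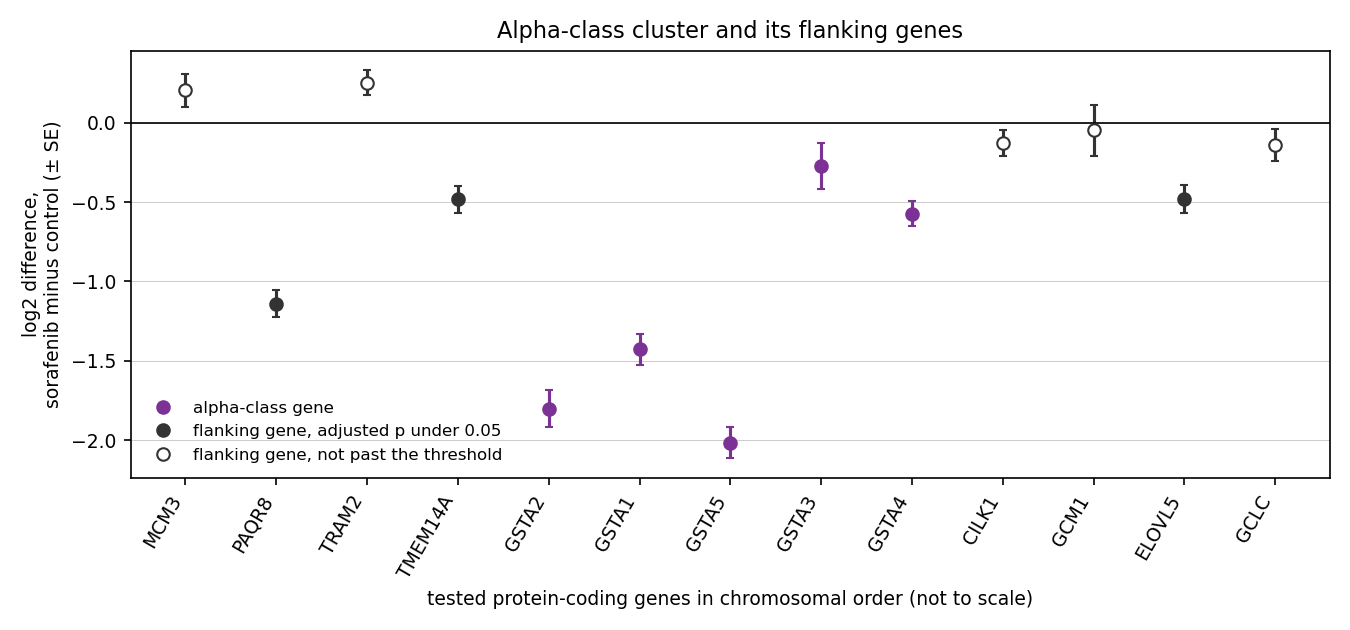
Log2 difference, sorafenib minus control, with 1 SE, of the alpha-class genes (purple) and the 8 tested protein-coding genes beside them (black, filled where the adjusted p was under 0.05), each by its kept probe of highest mean, in chromosomal order and not to scale. PAQR8 at -1.14 is the lowest flanking gene.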

How the data were processed

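Per the labels' protocols, biotinylated cRNA was made from DNase-treated total RNA and read on Illumina BeadChips. The authors deposited, without normalization, an intensity and a detection p-value for each of 47323 probes on 6 arrays, per the file headers. The authors' deposited processed values are log2 intensities, quantile normalized without background correction: recomputing them gave the same values within 5e-07, with a median of 7.09 on each array. The scanner software was not given in these sources. No 2 arrays held identical values.

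Intensities were corrected with limma's neqc (normexp, negative controls inferred from detection p-values, offset 16), quantile normalized and put on the log2 scale. The filter asked for a detection p below 0.05 on 3 or more of 6 arrays and kept 20120 probes. The platform annotation named 30113 probes with 1 symbol, 8 with several and 17202 with none; 30074 matched RefSeq (GRCh38.p14), which altered 0 symbols, and 2988 genes had several kept probes. Groups were compared by lmFit and eBayes, with two-sided p-values adjusted by Benjamini-Hochberg over the kept probes and a call under 0.05. Each error is the moderated SE. A probe above background on no array of a group got a bound, the bright mean against the higher of its own value and the lowest detected value. Detection sets the precision of dim probes, and the number of arrays limits that of all.

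Members and lists were chosen with earlier results of these data known. Named are all member probes, in each list the 4 called genes that changed most and up to 2 that changed the other way, a few fixed genes such as GCLC and NFE2L2 and the 5 probes most like the alpha class. Genes are read by their kept probe of highest mean.

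Titles give both groups replicate numbers 1 to 3, with no meaning stated. Deviations from group means correlated at 0.27, 0.24 and 0.31 between arrays of like number and at -0.29 to 0.03 otherwise, so a pairing by number was assumed, from these data alone. The planned fit did not use that pairing, so values given with no other setting named ignore it. The block was an alternative. The others changed the background (none, or an offset of 50), the scaling (median, or cyclic loess), the start (the authors' processed values), the filter (none, or detection p below 0.01 on each array, which left 15212 probes), the unit (1 probe or the probe mean per gene), the variance model (trend and robust, or array weights) and the arrays (each left out in turn). Simulated data with known changes were used to check the fit. R 4.3.3, limma 3.58.1, statmod 1.5.0, Python 3.11.15, pandas 2.3.3 and matplotlib 3.10.9 were used.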

Additional observations from a re-analysis of the deposited data

How the results depend on the processing

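The count of all probes past the threshold was 3364 and became 1853 after median scaling and 1463 to 2329 without single arrays. It was 1854, 1463 and 2329 without sorafenib replicate 1, 2 and 3, and 1866, 1498 and 1837 without control replicate 1, 2 and 3. Over the 9 lists 32 different genes passed, against 17 with median scaling and 14 to 30 without single arrays. The causes of these shifts were not tested, beyond the fewer arrays in the last. The member probes past the threshold were 9 lower and 3 higher as planned and in each of the 6 fits without 1 array. Lower ones numbered 8 with median scaling, which lost GSTA4, and 9 to 11 under the other settings on probes, and by gene 6 and 7. GSTK1 passed in 7 and MGST3 in 6 of 16 fits on probes. Of 296 member values over 18 alternatives, 11 left the spread between arrays. No member past the threshold changed sign, but 2 MGST1 probes near 0 did without single arrays, ILMN_1781952 from -0.19 to 0.11 and ILMN_1803033 from -0.07 to 0.15. With replicate number as a block, all probes past the threshold numbered 4065 and member probes lower 11, since GSTK1 and MGST3 passed, and GPX7 and MAFG were lost; among the 30 called genes named by the rule the block ended no other call. Of those 30, 8 passed under each alternative run, 15 failed with median scaling and 19 without at least 1 array. Dim probes depend on the background step: without it the GSTA3 probe ILMN_2227817 and GSTA5 were at -0.54 and -1.50, GSTT2B, ACY3 and UGT2B7 at -0.33, -0.43 and -0.42 and MAFF at 0.95.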
